A study of Mus musculus with 4 samples.

Results

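The mitochondrial ribosomal protein genes were taken from RNA-seq of mouse embryonic stem cells (ESCs), pluripotent cells of the early embryo that grow in culture. Members were the rows whose gene symbol began with *Mrpl* or *Mrps* followed by a digit, without pseudogenes. A stretch of chromosome 6 was left out as well, because an earlier scan of the same data had set it apart as raised. These rules gave 74 genes of 19645 features in the files, with 45 named for the large subunit (*Mrpl*) and 29 for the small subunit (*Mrps*). The pattern matched 77 rows, and the other 3 lay in the chromosome 6 stretch. All 74 members matched a gene of the GENCODE annotation and lay on 17 chromosomes.

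The study compared 2 libraries of wild-type (WT) ESCs with 2 libraries of *Bmal1* KO ESCs, to ask what the transcription factor BMAL1 does in pluripotent cells outside the circadian clock. The KO cells were 1 line, grown from a single clone after CRISPR-Cas9 cutting near the start codon, and carry a frameshift deletion. Both genotypes grew on gelatin in serum medium with LIF, a cytokine that keeps ESCs undifferentiated. The labels do not say whether replicates came from separate cultures, so each p measures the spread between these libraries, and an effect of the genotype and one of the clone cannot be told apart. Values are FPKM, the fragments of a gene scaled to its length and to the mapped fragments of the library, and they can therefore be compared between genes. FPKM hold no read numbers, and the depth behind each value is unknown. The values come from bulk RNA, in which fewer cells of a type and less RNA per cell cannot be told apart.

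Mitochondria carry their own ribosome, which translates the few proteins that mitochondrial DNA encodes, all of them membrane subunits of the respiratory chain and ATP synthase. Its ribosomal RNAs are mitochondrial transcripts, whereas all of its proteins are made from nuclear genes and imported. Some have a counterpart in the bacterial ribosome and others were added in mitochondria. The ribosomal subunits are put together by assembly factors and work with dedicated translation factors. Mitochondrial tRNAs are charged by tRNA synthetases, not all of which are dedicated to mitochondria. None of the 19645 features lay on mitochondrial DNA, and the mitochondrial transcripts were not analysed here.

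The libraries expressed the markers of ESCs. All 10 ESC markers examined were present, with a summed level of 7163 and 6980 FPKM in WT and 6827 and 6393 FPKM in KO. Single markers moved both ways. *Nanog*, *Sox2*, *Zfp42*, *Klf4*, *Tdgf1* and *Utf1* were lower in both KO libraries than in both WT libraries. *Tfcp2l1* and the main row of *Esrrb* were higher, and *Pou5f1* and *Dppa5a* overlapped. Summed fibroblast, endoderm and mesoderm markers reached at most 2.93, 1.89 and 2.66 FPKM in any library. Most of the mesoderm sum in WT was *Eomes*, at 2.21 and 2.25 FPKM in WT and 0.463 and 0.775 FPKM in KO. The mesoderm markers *T*, *Mesp1* and *Kdr* were very low and higher in both KO libraries, and *Mixl1* overlapped. Summed neural markers were 133 and 127 FPKM in WT and 95.1 and 88.1 FPKM in KO, and nearly all of this sum was *Tubb3*, at 130 and 124 FPKM in WT and 82.5 and 74.0 FPKM in KO. *Sox1* was at 1.32 and 1.38 FPKM in WT and 6.91 and 7.61 FPKM in KO, and *Pax6*, *Neurod1* and *Nes* were also low and higher in both KO libraries than in both WT libraries. The part of these differences in the results below was not tested. *Arntl*, the gene symbol for *Bmal1*, had 6.05 and 6.29 FPKM in WT and 5.95 and 5.92 FPKM in KO. Its log2 fold change was -0.06 with a limma adjusted p of 0.750, and the mRNA level of a gene with a small frameshift deletion does not check the genotype.

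Mitochondrial ribosomal protein mRNAs were abundant in both genotypes. The median member had 57.4 and 62.5 FPKM in the WT libraries and 56.2 and 56.5 FPKM in the KO libraries. Over all libraries the median of the members stood at percentile 86.9 of the tested features. Of the 74 genes, 17 had a mean above 100 FPKM, 53 lay between 20 and 100 FPKM, and 4 lay below 20 FPKM. Genes whose products join the same ribosome thus spanned a wide range of mRNA levels.

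**Figure D1:**
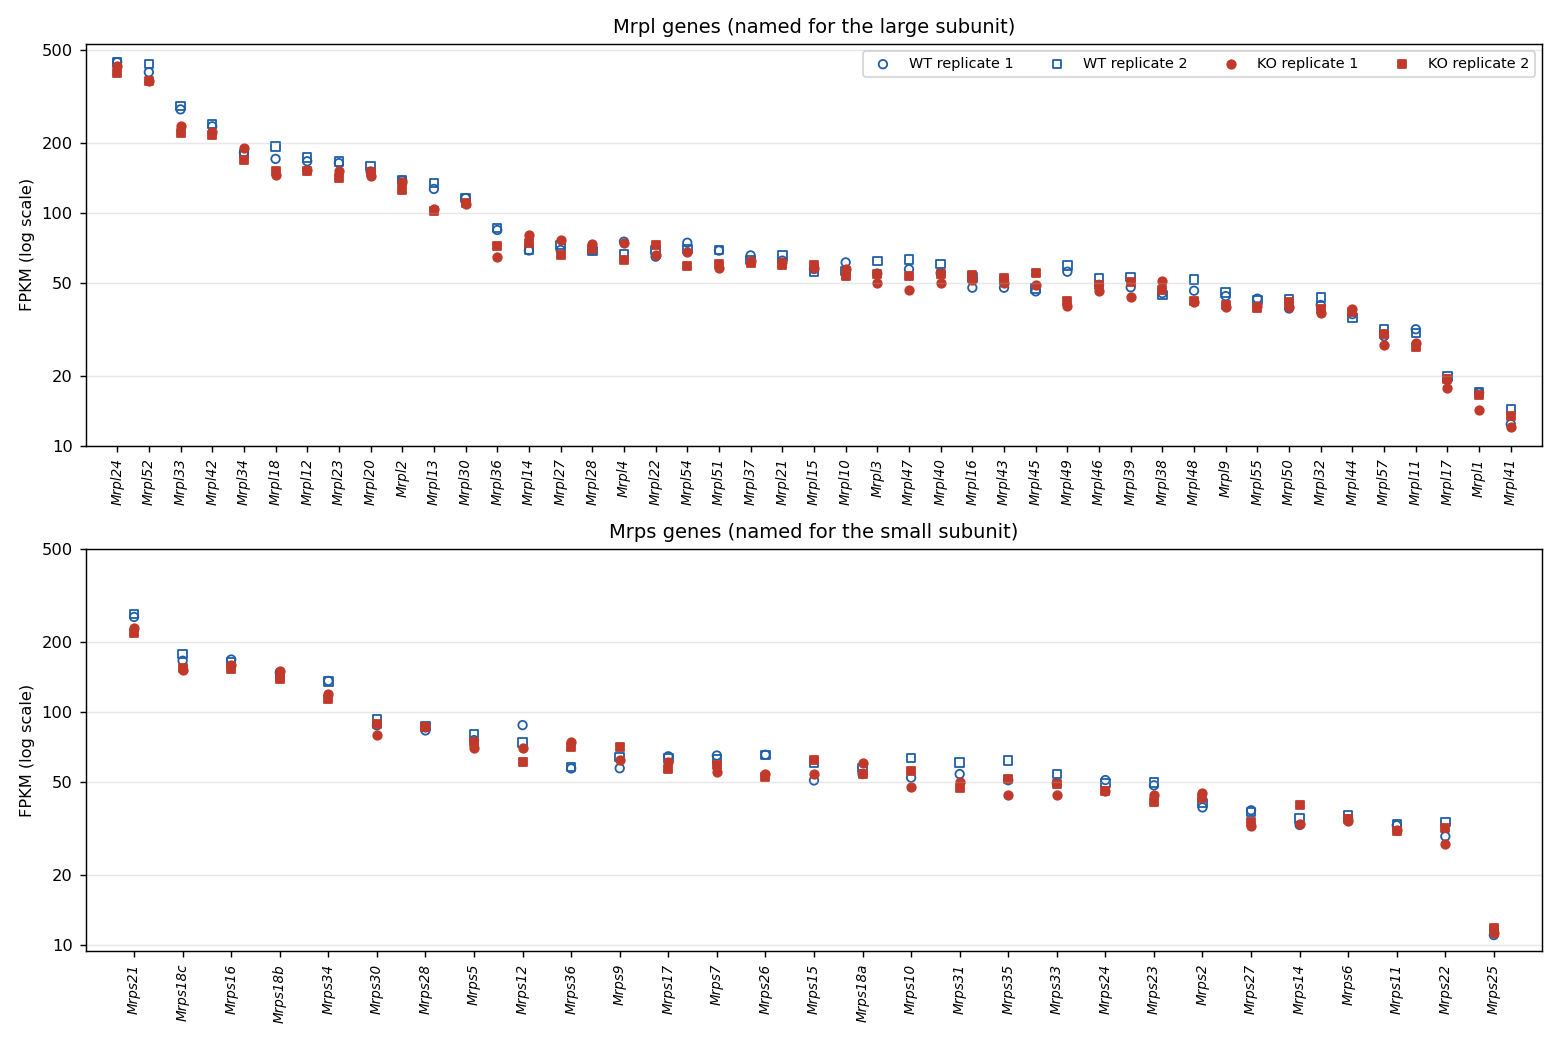
FPKM of each of the 45 *Mrpl* genes and 29 *Mrps* genes in the 4 libraries, on a log axis, ordered by mean level. Blue open symbols are WT, red filled symbols are KO, circles are replicate 1 and squares replicate 2. Levels ran from about 11.0 to 445 FPKM, and the spread between genes was far wider than that between the libraries of 1 gene.

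The highest level was that of *Mrpl24*, the counterpart of bacterial L24, with 445 and 443 FPKM in WT and 430 and 400 FPKM in KO. That row of the files was merged with *Hdgf*, a growth factor gene beside it, so the value cannot be assigned to *Mrpl24* alone. In all, 4 members were on such merged rows, the others being *Mrps34* with *Nme3*, *Mrps23* with *Cuedc1* and *Mrps6* with *Slc5a3*. *Mrpl52*, a large subunit protein found only in mitochondria, followed with 403 and 437 FPKM in WT and 370 and 370 FPKM in KO. *Mrpl33*, a short counterpart of bacterial L33, had 279 and 289 FPKM in WT and 237 and 221 FPKM in KO. Thus 2 of the 3 most abundant genes encode short proteins on unmerged rows. The 22 members that encode at most 150 residues had a median of 72.2 FPKM and the 52 longer ones a median of 55.2 FPKM. Across the 74 genes, however, level and protein length were only weakly related, with a Spearman's rho of -0.19, and all genes of that comparison share the same libraries.

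The lowest level was that of *Mrps25*, with 11.0 and 11.6 FPKM in WT and 11.2 and 11.8 FPKM in KO. *Mrpl41* had 12.4 and 14.3 FPKM in WT and 12.1 and 13.4 FPKM in KO. It shares its locus with a merged row of *Dph7* and *Zmynd19*, at 75.9 and 80.4 FPKM in WT and 65.4 and 67.6 FPKM in KO. Its low level therefore depends on how fragments were divided between the rows. *Mrpl1*, the counterpart of the bacterial protein that forms the L1 stalk, had 16.9 and 17.0 FPKM in WT and 14.2 and 16.5 FPKM in KO. These 3 genes lay close to each other, and *Mrpl41* and *Mrps25* overlapped between genotypes.

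To test whether loss of *Bmal1* moved these genes, KO was compared with WT in limma across 12990 features with a mean of at least 0.5 FPKM, and all 74 members passed that filter. At an adjusted p under 0.05, 3 members were lower in KO and 1 was higher, whereas 70 were not called. Of all tested features 5.60% were called lower and 6.85% higher (12.5% in either direction). In this fit the members were called no more often than the background in either direction. That background, also used below, kept the chromosome 6 stretch that the members leave out, where *Mrpl53* and *Mrpl19* were called higher. Shares of higher values therefore compare sets that are not fully alike. None changed more than 2-fold with an adjusted p under 0.05, a call that 4.14% of tested features reached. The 95% confidence interval of the fold change lay within 2-fold in 74 of 74 members and within 1.5-fold in 72. A 2-fold change in either direction was therefore outside the interval of every member.

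The members nevertheless leaned downwards by a small amount. The median log2 fold change of the 74 genes was -0.10, with a range of -0.50 to 0.33, and that of all tested features was -0.02. A value below 0 was seen in 57 of 74 members, against 53.2% of tested features. Both KO libraries were below both WT libraries in 41 members, against 31.7% of tested features, and above in 8, against 27.0%. In the other 25 the genotypes overlapped, and 58.8% of tested features had both KO libraries on 1 side of WT. At an unadjusted p under 0.05, 16 members were lower and 1 was higher, and 15.5% of tested features were lower and 14.1% higher at that level. Each library was also scaled to the same summed FPKM of the features that have a gene symbol. The median of the members was then -0.03, with 47 of 74 below 0, and that of all tested features was 0.05. Under that scaling the calls among all features were 518 lower and 1076 higher, in place of 728 lower and 890 higher.

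Replicates put this shift into scale. The difference between the replicates of a genotype reached at most 0.28 in WT and 0.27 in KO on the log2 scale, and the median SD between replicates was 0.06. The fold change was larger than the replicate differences of both genotypes in 38 of 74 members. That share was not computed for all tested features, so the count cannot be read as particular to the members. Replicate 2 was above replicate 1 in 54 members in WT and in 39 in KO.

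**Figure D2:**
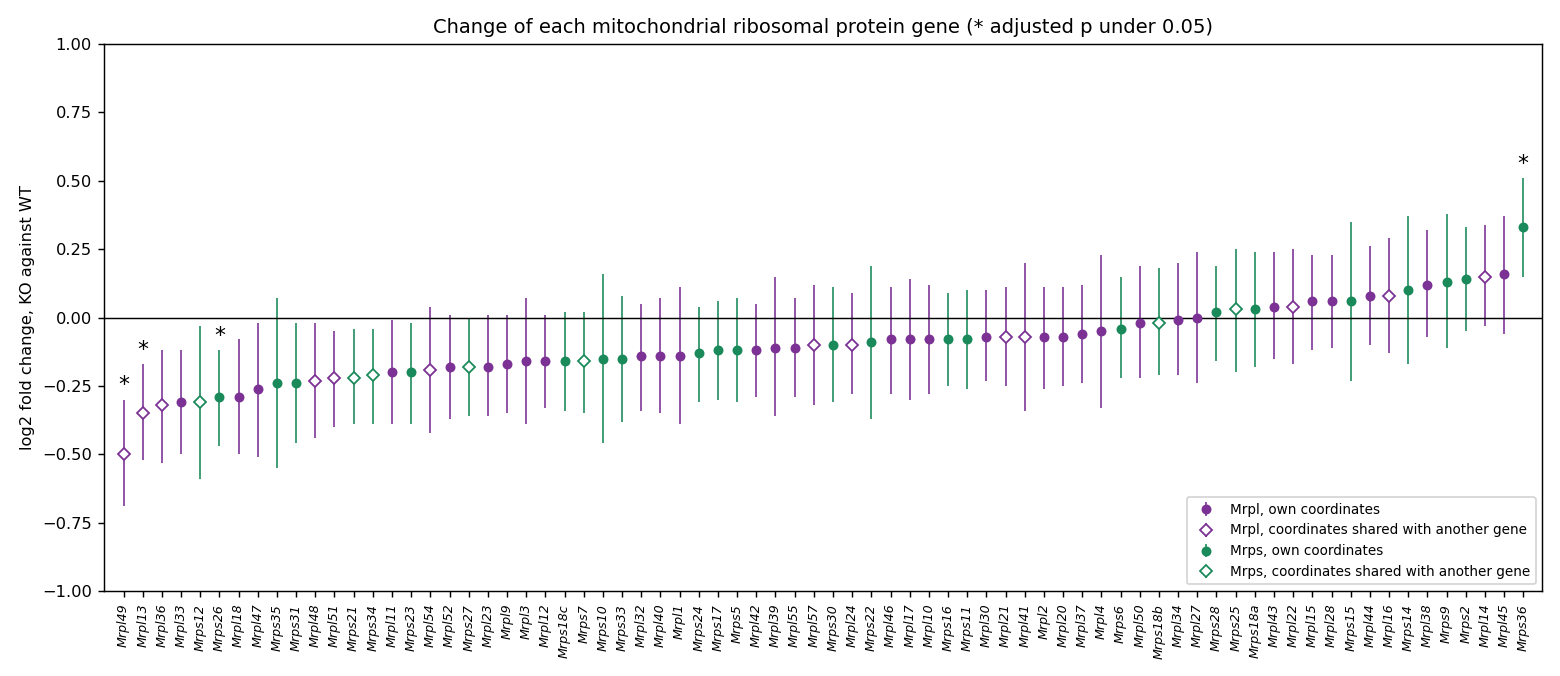
Log2 fold change of KO against WT for each of the 74 genes with its 95% confidence interval, ordered by size. Purple marks *Mrpl* and green *Mrps* genes, open diamonds are rows that share coordinates with another gene, and an asterisk marks an adjusted p under 0.05. The values lie between -0.50 and 0.33, and most intervals cross 0.

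*Mrpl49*, a large subunit protein with no bacterial counterpart, fell most. It had 56.0 and 59.5 FPKM in WT and 39.8 and 42.0 FPKM in KO. Both KO libraries were lower than both WT libraries, by more than the replicates differed. The log2 fold change was -0.50 (SE 0.08), which is 0.709 of the WT level, with a limma adjusted p of 0.0165. The locus of this row (GRCm38, chr19:6046257-6057751) is shared with *Syvn1*, a ubiquitin ligase gene, which had 12.5 and 9.46 FPKM in WT and 10.7 and 9.57 FPKM in KO. *Syvn1* overlapped between genotypes and had an adjusted p of 0.680. In the annotation the *Mrpl49* gene lies at chr19:6053622-6057785 on the minus strand and encodes 166 residues.

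*Mrpl13*, the counterpart of bacterial L13, fell as well. It had 127 and 135 FPKM in WT and 104 and 102 FPKM in KO, with no overlap of the genotypes. The log2 fold change was -0.35 (SE 0.07), with an adjusted p of 0.0348. Its locus (GRCm38, chr15:55534095-55626423) is shared with *Mtbp*, which had 15.6 and 15.8 FPKM in WT and 15.3 and 16.6 FPKM in KO, an adjusted p of 0.904. Hence in both cases the neighbour on the same locus was low and was not called.

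*Mrps26*, a small subunit protein found only in mitochondria, was the third gene that fell. It had 65.5 and 65.5 FPKM in WT and 54.0 and 52.8 FPKM in KO, so the replicates lay close together and the genotypes stood apart. The log2 fold change was -0.29 (SE 0.07), with an adjusted p of 0.0486, just under the threshold. No other row has its coordinates (GRCm38, chr2:130563757-130565394).

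*Mrps36* was the gene that rose. It had 57.2 and 58.1 FPKM in WT and 74.2 and 70.8 FPKM in KO, and both KO libraries were above both WT libraries. The log2 fold change was 0.33 (SE 0.07), with an adjusted p of 0.0389 (GRCm38, chr13:100735940-100744659). Although it was named as a ribosomal protein, its product is known as a subunit of the 2-oxoglutarate dehydrogenase complex of the citric acid cycle. Without it, 0 members were higher at an adjusted p under 0.05 in limma, and 0 at an unadjusted p under 0.05.

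These calls differed in how far they held. Over 14 other ways of processing the same libraries, *Mrpl49* was called in 13, with an adjusted p between 0.00270 and 0.0542. *Mrpl13* was called in 7 (0.00823 to 0.147), *Mrps36* in 8 (0.00776 to 0.158) and *Mrps26* in 4 (0.00739 to 0.175). *Mrps26* and *Mrps36* were each lost when any of the 4 libraries was left out, although their log2 fold changes stayed at -0.31 to -0.28 and at 0.30 to 0.36. *Mrpl13* was kept when WT replicate 1 was left out and lost without WT replicate 2, KO replicate 1 or KO replicate 2, at an adjusted p of 0.147, 0.0840 and 0.107.

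**Figure D3:**
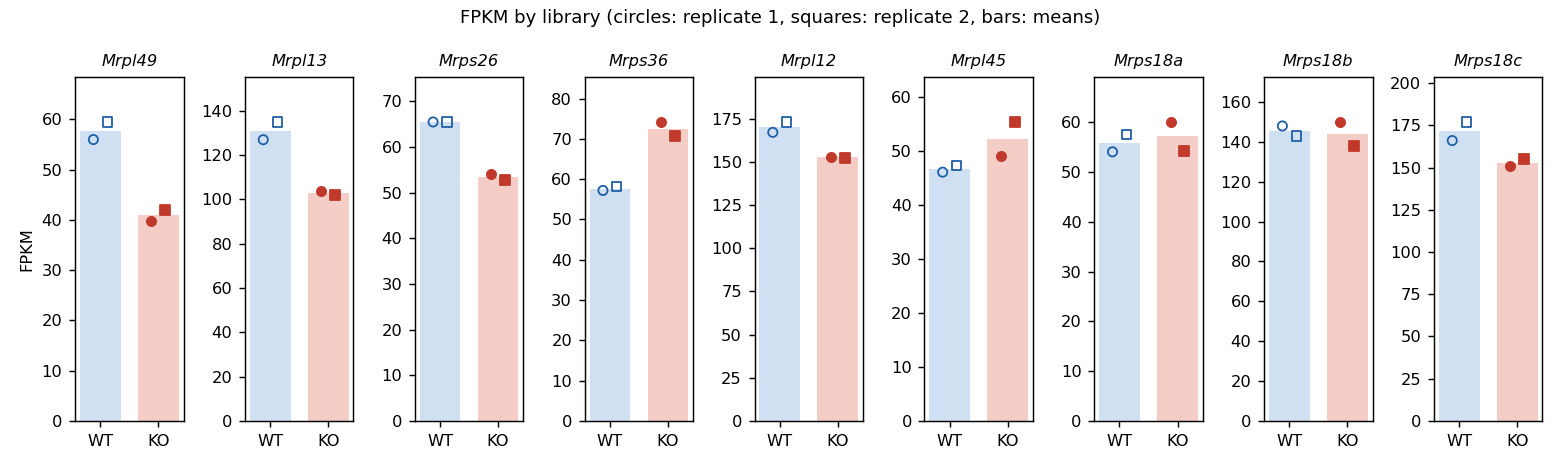
FPKM in each library for the 4 called genes and 5 genes chosen by role, with bars for the mean of 2 libraries and an axis from 0 in each panel. Circles are replicate 1 and squares replicate 2. *Mrpl49*, *Mrpl13* and *Mrps26* are lower and *Mrps36* is higher in both KO libraries, and the genotypes overlap in *Mrps18a* and *Mrps18b*.

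The bases before the annotated starts are shown for 3 of the 4 called genes, since BMAL1 with its partner CLOCK binds the E-box CACGTG. They are RefSeq sequences of build GRCm38.p6, written 5′ to 3′ on the strand of the gene. Capitals mark any E-box (CACGTG), NRF1 core (GCGCATGC), ETS motif (CCGGAAG) or CCAAT box (CCAAT) on either strand. The *Mrps36* run covers the 250 bases before the start, and the runs of *Mrpl49* and *Mrps26* leave out annotated untranslated regions. The regions are chr13:100744660-100744909 (minus strand), chr19:6057786-6057843 (minus strand) and chr2:130563507-130563741 (plus strand).
Mrps36: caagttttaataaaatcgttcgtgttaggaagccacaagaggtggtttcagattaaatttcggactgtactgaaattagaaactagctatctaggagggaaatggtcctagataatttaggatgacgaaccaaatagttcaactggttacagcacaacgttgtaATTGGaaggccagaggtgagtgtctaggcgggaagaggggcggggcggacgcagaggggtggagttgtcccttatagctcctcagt
Mrpl49: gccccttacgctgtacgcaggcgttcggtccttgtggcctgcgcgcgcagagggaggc
Mrps26: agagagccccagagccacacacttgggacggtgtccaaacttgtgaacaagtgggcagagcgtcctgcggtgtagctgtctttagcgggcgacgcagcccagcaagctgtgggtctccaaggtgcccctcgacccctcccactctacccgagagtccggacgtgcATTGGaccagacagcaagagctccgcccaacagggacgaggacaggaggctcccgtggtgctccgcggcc
*Mrpl13* had no entry. None of these 3 promoters held the E-box. *Mrps36* and *Mrps26* each carried 1 CCAAT box, read as ATTGG on the strand shown. The *Mrps26* promoter also held the ETS motif, in the untranslated region just past the end of the run, and the *Mrpl49* promoter held none of the motifs.

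Promoters of the family were then searched as a whole. A window of 250 bases before to 50 bases after the start was given for 66 of 74 members, and both strands were read. A gene was counted once if any of its promoters held the motif. The E-box was found in 5 of 66 members, or 7.58%, against 8.09% of all genes with a promoter sequence and 8.91% of the protein-coding ones. The ETS motif, bound by GABPA among others, was found in 24 members, or 36.4%, against 9.93% of all and 12.9% of coding genes. The NRF1 core, part of the site of a factor known for driving nuclear genes of mitochondria, was found in 8 members, or 12.1%, against 3.05% and 3.93%. The CCAAT box was found in 26 members, or 39.4%, against 41.1% and 42.3%. No match of 1 motif overlapped that of a different motif. Matches of the same motif overlapped in *Mrpl9*, *Mrpl32* and *Mrpl39* (NRF1 core) and in *Mrpl28* (CCAAT box), which leaves the counts of members as given. The E-box was thus found about as often as in other genes, whereas the ETS and NRF1 letters were found more often. These are counts of genes with the letters, not of bound sites.

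The 5 members with an E-box are shown with 12 bases on either side, because they are the members in which the letters of the BMAL1 site occur. Capitals mark the E-box. The windows are chr17:46646078-46646107, chr4:155802833-155802862, chr13:73330954-73330983, chr4:107067011-107067040 (minus strand) and chr5:100798584-100798613, in the order given.
Mrpl2: actgccgcccgtCACGTGacccgagcaacc
Mrpl20: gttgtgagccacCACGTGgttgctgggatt
Mrpl36: cacacgtcatccCACGTGaccttacgccat
Mrpl37: agcaagtttcttCACGTGtggcacttcaga
Mrps18c: gcagccccgggtCACGTGacttccggcccg
None of the 5 was called, against 3 of the 61 members without an E-box and 12.5% of all tested features. With only 5 genes that count cannot tell them apart from the others. The log2 fold changes of the 5 ran from -0.32 to -0.06 with a median of -0.07. Those of the 61 ran from -0.50 to 0.33 with a median of -0.10. *Mrpl36* had the most negative value of the 5, with 84.6 and 86.4 FPKM in WT, 64.8 and 71.9 FPKM in KO and an adjusted p of 0.0566. It shares its locus with *Ndufs6*, a complex I subunit gene at 406 and 438 FPKM in WT and 427 and 410 FPKM in KO, which has a log2 fold change of -0.01.

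The subunits are given side by side, and the difference between them was not tested. The median log2 fold change was -0.10 over 45 *Mrpl* genes and -0.12 over 29 *Mrps* genes. In the *Mrpl* genes both KO libraries were below WT in 26, above in 6 and overlapping in 13. In the *Mrps* genes the counts were 15, 2 and 12. Of all tested features, 31.7% had both KO libraries below both WT libraries and 27.0% had both above. Summed over the *Mrpl* genes, the level was 4270 and 4407 FPKM in WT and 4012 and 3942 FPKM in KO. Summed over the *Mrps* genes, it was 2145 and 2213 FPKM in WT and 2025 and 2030 FPKM in KO. For both subunits the KO sums were below the WT sums, and the sums of both include merged rows.

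The genes were also split by evolutionary origin, with *Mrps30* and *Mrps18a* counted in the large subunit, where their products sit. Of 28 large subunit genes with a bacterial counterpart, 1 was lower (*Mrpl13*), and their median was -0.09. Of 19 found only in mitochondria, 1 was lower (*Mrpl49*), and their median was -0.10. Of 16 small subunit genes with a bacterial counterpart none was called in limma, and their median was -0.10. Of 10 found only in mitochondria, 1 was lower (*Mrps26*), and their median was -0.19. In the order given, 6, 3, 2 and 5 genes of these classes were lower at an unadjusted p under 0.05 in limma. Values below 0 were seen in 23, 14, 11 and 9 genes. Among all tested features 5.60% were called lower, 15.5% were lower at an unadjusted p under 0.05 in limma, and 53.2% were below 0. Differences between these classes were not tested.

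The stalk of the large subunit recruits translation factors. *Mrpl12*, which forms the stalk and also binds the mitochondrial RNA polymerase, had 167 and 173 FPKM in WT and 153 and 152 FPKM in KO, a log2 fold change of -0.16 with an adjusted p of 0.191. *Mrpl10*, which anchors the stalk, had 61.4 and 56.4 FPKM in WT and 57.4 and 53.9 FPKM in KO. *Mrpl11*, at the base, had 31.7 and 30.5 FPKM in WT and 27.6 and 26.6 FPKM in KO, a log2 fold change of -0.20 with an adjusted p of 0.159. The KO libraries were lower without overlap in *Mrpl12* and *Mrpl11* and overlapped in *Mrpl10*, and none of the 3 passed the test.

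At the tunnel exit, where the new protein leaves, *Mrpl45* ties the ribosome to the inner membrane. It had 46.1 and 47.4 FPKM in WT and 49.1 and 55.4 FPKM in KO, a log2 fold change of 0.16 with an adjusted p of 0.284. *Mrpl44*, which has an RNase III-like fold, had 36.8 and 35.5 FPKM in WT and 38.9 and 37.7 FPKM in KO, with an adjusted p of 0.510. Both KO libraries were above WT in these genes, by amounts that did not pass the test.

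Of the small subunit, *Mrps12* belongs to the decoding centre. It had 87.8 and 74.1 FPKM in WT and 69.7 and 60.9 FPKM in KO. Its log2 fold change of -0.31 was similar in size to that of called genes, but its replicates spread more (SE 0.11) and the adjusted p was 0.141. It shares its locus with *Sars2*, the mitochondrial seryl-tRNA synthetase, which had 25.6 and 23.7 FPKM in WT and 28.0 and 24.5 FPKM in KO. *Mrps2*, the counterpart of bacterial S2, had 38.9 and 40.6 FPKM in WT and 44.9 and 42.7 FPKM in KO, a log2 fold change of 0.14 with an adjusted p of 0.283. *Mrps34*, whose row is merged with *Nme3*, had 136 and 135 FPKM in WT and 120 and 114 FPKM in KO, a log2 fold change of -0.21 with an adjusted p of 0.116. *Mrps27*, a pentatricopeptide repeat protein, had 37.8 and 37.2 FPKM in WT and 32.5 and 33.6 FPKM in KO, with an adjusted p of 0.167. These 4 genes, chosen by role, differed in direction, and none was called. In all 4 the genotypes did not overlap, but 58.8% of all tested features also had both KO libraries on 1 side of WT. Of the 29 *Mrps* genes, 12 overlapped.

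The *Mrps18* genes are paralogs, of which *Mrps18c* was listed as the counterpart of bacterial S18 and the others among the genes found only in mitochondria. *Mrps18c* was the highest, with 166 and 177 FPKM in WT and 151 and 155 FPKM in KO, and its adjusted p was 0.207. *Mrps18b* had 148 and 143 FPKM in WT and 150 and 138 FPKM in KO. *Mrps18a* had 54.1 and 57.6 FPKM in WT and 60.1 and 54.3 FPKM in KO. The order of their levels was thus the same in all 4 libraries, although *Mrps18b* and *Mrps18c* hardly differed in KO replicate 1, and *Mrps18a* was the lowest of the 3 in each. *Mrps30*, which sits in the large subunit in spite of its name, had 87.6 and 93.3 FPKM in WT and 80.0 and 88.7 FPKM in KO, with overlap.

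Rows of the files give the coordinates of a locus, and 20 members share both coordinates with another feature, while 54 do not. Estimates for genes of 1 locus divide overlapping fragments between them and are less certain. The median log2 fold change was -0.17 over the 20 and -0.09 over the 54. Of the 20, 2 were lower (*Mrpl49* and *Mrpl13*), and of the 54, 1 was lower (*Mrps26*) and 1 higher (*Mrps36*). Among all tested features 5.60% were lower and 6.85% higher. *Mrps21*, the counterpart of bacterial S21, shares its locus with 3 features, among them *Ciart*, a repressor of the circadian clock. *Mrps21* had 256 and 263 FPKM in WT and 229 and 218 FPKM in KO, a log2 fold change of -0.22 with an adjusted p of 0.111. *Ciart* had 15.0 and 12.8 FPKM in WT and 12.5 and 10.3 FPKM in KO, with an adjusted p of 0.208. The third, *BC028528*, fell from 13.1 and 10.8 FPKM to 4.99 and 6.72 FPKM, with an adjusted p of 0.0201. Of the other members on shared loci, *Mrpl14*, *Mrpl16*, *Mrpl21*, *Mrpl22*, *Mrpl48*, *Mrpl51*, *Mrpl54*, *Mrpl57* and *Mrps7* had log2 fold changes from -0.23 (*Mrpl48*) to 0.15 (*Mrpl14*), and none was called. *Mrpl24*, *Mrpl36*, *Mrpl41*, *Mrps12*, *Mrps18b*, *Mrps25*, *Mrps27* and *Mrps34*, whose values are given above, share loci as well and were not called.

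Other proteins of the mitochondrial translation apparatus were taken from lists. The median log2 fold change of 7 mitoribosome proteins with other names, *Mrpl57* among them, was -0.08. Of these 1 was higher, against 6.85% of all tested features. That gene was *Ptcd3*, a small subunit protein, which rose from 34.4 and 38.7 FPKM to 55.2 and 63.4 FPKM (log2 fold change 0.69, adjusted p = 0.0144). It lies in the chromosome 6 stretch, which was set apart as raised in these same data, so its call is no separate result. *Ict1*, which rescues stalled ribosomes, had 49.4 and 53.7 FPKM in WT and 50.3 and 49.4 FPKM in KO, with overlap.

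Of 26 assembly factors, 2 were lower and none higher, the median was -0.13 and 20 were below 0. Among all tested features 5.60% were called lower, 6.85% were called higher and 53.2% were below 0. *Rbfa*, which helps mature the small subunit, fell from 75.2 and 77.8 FPKM to 50.8 and 52.7 FPKM. Its log2 fold change was -0.56 (SE 0.07), with an adjusted p of 0.00966. *Ftsj2*, also called *Mrm2*, methylates the large ribosomal RNA of mitochondria. It fell from 16.4 and 15.8 FPKM to 11.7 and 12.4 FPKM (log2 fold change -0.42, adjusted p = 0.0349), and it is named because it was the only other call. Both rows share their coordinates with another feature.

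Of 16 rows for translation factors none was called in limma, 4 were lower and 1 higher at an unadjusted p under 0.05, and the median was -0.08. Among all tested features 12.5% were called, and 15.5% were lower and 14.1% higher at that unadjusted p. *Tufm*, the elongation factor that brings tRNA to the ribosome, had 122 and 115 FPKM in WT and 101 and 97.3 FPKM in KO. Its log2 fold change was -0.26 with an adjusted p of 0.0787. *Tsfm*, which recycles it, had 54.5 and 50.4 FPKM in WT and 57.2 and 50.1 FPKM in KO. The main row of *Gfm1*, a translocation factor, had 52.9 and 55.5 FPKM in WT and 51.4 and 51.3 FPKM in KO. *Mtif2*, an initiation factor, had 14.4 and 17.3 FPKM in WT and 15.3 and 16.9 FPKM in KO. Overlap was seen in *Tsfm* and *Mtif2*. A list of 22 genes for charging mitochondrial tRNAs held synthetases and the amidotransferase subunits *Qrsl1*, *Gatb* and *Gatc*. None was called in limma, 7 were lower and 0 higher at an unadjusted p under 0.05, and the median was -0.13. *Gatb* and *Gatc*, named after their values were seen, were among the 7 and had the most negative log2 fold changes, at -0.34 and -0.33.

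The members were set beside the ribosome of the cytosol and respiratory complex I. The median log2 fold change of 82 cytosolic ribosomal protein genes was -0.15, with 75 below 0, although it was 0.07 after quantile normalization. Among them 2 were lower and 1 higher, and of all tested features 5.60% were lower and 6.85% higher. The median of 36 tested complex I subunit genes was 0.05, with 25 above 0. None of these was called in limma, and 1 was lower and 2 higher at an unadjusted p under 0.05. At that level 15.5% of all tested features were lower and 14.1% higher. The mitochondrial ribosomal protein genes thus lay between those groups and nearer to the cytosolic ribosome in the data as deposited, and differences between the groups were not tested.

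**Figure D4:**
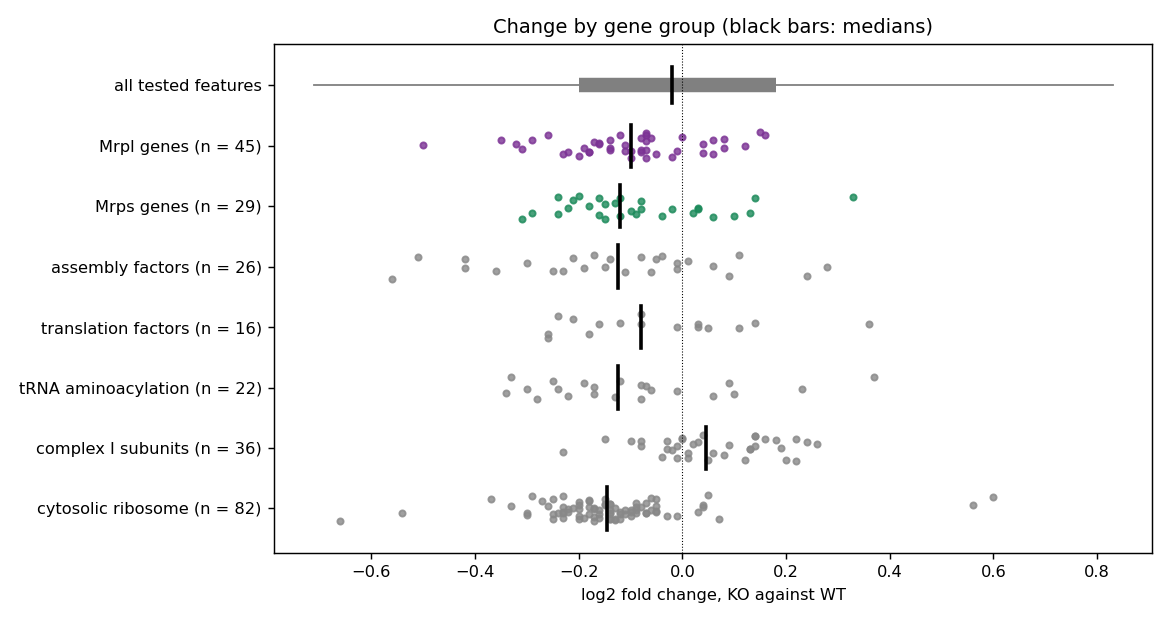
Log2 fold change of KO against WT by gene group, with 1 point per gene and black bars for medians. For all tested features the thick grey bar spans percentiles 25 to 75 and the thin line percentiles 5 to 95. The *Mrpl* and *Mrps* medians are -0.10 and -0.12, within the -0.20 to 0.18 of the thick bar.

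Of the 3 genes of the family in the chromosome 6 stretch, *Mrpl53* and *Mrpl19* rose and *Mrpl35* was not called. *Mrpl53*, on a row merged with *Ccdc142*, had 27.5 and 31.2 FPKM in WT and 54.4 and 61.2 FPKM in KO, a log2 fold change of 0.98 with an adjusted p of 0.00604. *Mrpl19* had 6.32 and 6.48 FPKM in WT and 11.0 and 12.4 FPKM in KO, a log2 fold change of 0.86 with an adjusted p of 0.00842. *Mrpl35* had 12.7 and 12.6 FPKM in WT and 10.7 and 12.2 FPKM in KO, a log2 fold change of -0.15 with an adjusted p of 0.387. The rises of *Mrpl53* and *Mrpl19* were larger than that of any member, whereas the value of *Mrpl35* was inside the range of the members. The stretch was set apart as raised in these same data, so these rises are no separate result.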

How the data were processed

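RNA-seq was analysed for 2 WT and 2 *Bmal1* KO ESC libraries, grouped by their labels. The authors extracted RNA with Trizol, removed ribosomal RNA, aligned reads to GRCm38 with TopHat2 2.1.1 and Bowtie2 2.3.0, and estimated FPKM with Cufflinks 2.2.1. These deposited FPKM are the values used, and the strand setting is not given in the sources used here. Depth is unknown, so no counting error can be given, and precision rests on the spread between replicates.

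FPKM were compared as log2(FPKM + 0.1) for features with a mean of at least 0.5 FPKM, in limma 3.58.1 under R 4.3.3 (moderated test with a variance trend, two-sided) with Benjamini-Hochberg adjustment over 12990 features. A call is an adjusted p under 0.05. Fold changes are on this log2 scale and understate those of low genes. With 2 against 2 libraries an exact permutation test of a single gene cannot go below p = 0.333. The limma step was tested on simulated data. Rows start from 0 in the files, so 1 was added to each start. Gene positions and protein lengths came from GENCODE vM21 and promoters from RefSeq. Python 3.11.15, pandas 2.3.3 and scipy 1.17.1 were used.

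The members, lists and tests were chosen with earlier results of these data known. Members were named if they were among the 6 largest rises or falls called, the 3 highest or lowest by mean FPKM, had a role chosen by name, or shared both coordinates with another feature. From other lists the largest called rise and fall, *Tufm*, *Tsfm*, *Gfm1* and *Mtif2* were named. Cytosolic ribosomal protein genes were taken by symbol, without *Rps6k* kinases and *Rps19bp1*. Alternatives were other pseudocounts, filters and scalings, a replicate block, no variance trend, values summed by symbol, and leaving out libraries or members on shared loci.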

Additional observations from a re-analysis of the deposited data

How the results depend on the processing

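The median log2 fold change of the members stayed below 0 under each of the 14 alternatives that refit the comparison. Without the filter on low values 1 member was lower and 0 were higher by limma at an adjusted p under 0.05. Of all features 1.93% were then lower and 2.91% higher, so calls among all features were also fewer than with the filter. After quantile normalization 1 was lower, against 5.37% of all features, and the *Mrpl* median was -0.05. With each library scaled to the same summed FPKM of features with a gene symbol, 1 was lower, against 3.99% of all features. The medians were then -0.03 for all members, -0.02 for *Mrpl* and -0.04 for *Mrps*. Without a variance trend limma called 0 lower and 0 higher, and 457 lower and 708 higher among all features. In the 54 members that share coordinates with no other feature, *Mrps23* and *Mrps6* on merged rows among them, 1 was lower. In the 4-library fit 5.60% of all tested features were lower. Without *Mrps36*, an alternative chosen after seeing the data, 0 were higher. Leaving out 1 library in turn gave medians of -0.13 to -0.07 for all members, -0.13 to -0.07 for *Mrpl* and -0.16 to -0.07 for *Mrps*. The lone library of a genotype is then assumed to vary like the others. At an unadjusted p under 0.05 the 4-library fit had 16 members lower and 1 higher, and 15.5% of all tested features lower and 14.1% higher. The cause of these differences was not tested.

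With the replicate number as a block, 27 of 74 members were lower and 2 higher, and among all features 2245 (17.3%) were lower and 1807 (13.9%) higher. The share of members called lower was then above that of all features, unlike without the block. Deviations of libraries with the same number correlated at 0.0712 over all features and at 0.66 over the 74 members. With 2 numbers and no label of a shared batch, these values do not show whether the number pairs the libraries.

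Over all 74 members, 57 were below 0 in the data as deposited, 47 by summed scaling and 52 by quantile normalization. The median of all tested features was -0.02, 0.05 and -0.01, in that order. Among the named genes, signs turned only in those that were not called. By summed scaling the log2 fold change was 0.02 for *Ict1*, 0.00 for *Mrpl41* and 0.06 for *Mrps18b*, and by quantile normalization 0.07 for *Mrps18b*. Leaving out 1 library in turn, the values ran from -0.11 to 0.01 for *Ict1*, -0.03 to 0.11 for *Mrpl22*, -0.17 to 0.03 for *Mrpl41*, -0.04 to 0.11 for *Mrps18a*, -0.08 to 0.05 for *Mrps18b*, -0.01 to 0.07 for *Mrps25*, -0.10 to 0.16 for *Mtif2* and -0.07 to 0.13 for *Tsfm*. Of the named genes' values, 558 kept their direction and side of the threshold, 24 lost and 15 gained a call, and 19 turned.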
